A study of Caenorhabditis elegans with 2 samples.

Results

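Peptide genes are the genes for neuropeptides and insulin-like peptides that worm cells release as signals. All 140 protein-coding genes of the *Caenorhabditis elegans* WBcel235 annotation named flp, nlp or ins with a number were taken by name, out of 19985 protein-coding genes. They comprise 31 flp, 71 nlp and 38 ins genes, and the other 19845 protein-coding genes served for comparison. A gene was counted as having a region where the region's summit, the position of its maximum, lay from 1000 bp upstream to 500 bp downstream of one of its protein-coding transcript starts, here called the promoter window.

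Binding of UNC-62 was profiled by chromatin immunoprecipitation and sequencing in whole fourth-stage (L4) larvae. The 2 samples are biological replicates of 1 group, each labelled as pooled male and female. The antibody is labelled only by its target, unc-62. The strain, OP600, carries the unc119(ed3) mutation, an unc119 transgene, and the integrated array wgIs600, from which UNC-62 is made with a C-terminal TY1, EGFP and FLAG tag. No untagged strain, other stage or other genotype belongs to the series, the control library was not analysed here, and every comparison below is between sets of genes within the same lists. In whole worms, binding in few cells and weak binding in many cells cannot be told apart.

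UNC-62 is a TALE homeodomain factor of the Meis and Homothorax class, whose members recognise the core word TGACAG. The flp genes encode FMRFamide-like neuropeptides. The nlp genes encode a mixed set of other neuropeptide-like proteins, among them antimicrobial peptides of the epidermis, and the ins genes encode insulin-like peptides, which act on the insulin receptor DAF-2 as agonists or antagonists. Precursors of flp and nlp peptides are cut by the convertase EGL-3 and trimmed by the carboxypeptidase EGL-21, and are released from dense-core vesicles with the help of UNC-31.

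The authors deposited 4 lists of regions in build ce11. The lists of replicate 1 (18114 regions) and replicate 2 (20477 regions) and the pooled list made from both (4849 regions) hold peaks together with background, without a threshold, so being listed there is not evidence of binding. The fourth list, kept after the authors' irreproducible discovery rate step and called the thresholded list here, holds 197 regions. These are the top 197 of the pooled list by signal. Ranks are by the authors' signal within a list, with 1 the highest. Only 352 pooled regions had a q-value of 0.05 or less. Replicate 2 listed 25 mitochondrial regions and replicate 1 listed 1, but all 140 peptide genes are nuclear. The lists hold no read counts, so depth is unknown.

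In the pooled list few peptide genes had a region at the promoter, and flp genes had none, a count that depends on the replicates used. The pooled list placed a summit in the window of 0 of 31 flp genes, 1 of 71 nlp genes and 4 of 38 ins genes, or 5 of 140 in all (3.57%, 95% Wilson interval 1.53 to 8.09). Among the other protein-coding genes the share was 11.2% (2214 genes, interval 10.7 to 11.6). With replicate 1 alone, taken to the length of the pooled list, 8 peptide genes had a region (5.71%, against 10.1% of other genes), of which 3 were flp genes. With replicate 2 alone 8 had one (5.71%, against 10.7%), of which 0 were flp genes, and ins-35 and ins-39 were the genes common to both sets. The 5 genes of the pooled list were ins-39, nlp-36, ins-35, ins-7 and ins-14. In each of the 5, the member's own start was the nearest protein-coding start to the summit. The DNA under these 5 summits is shown first, since they are all the pooled regions that the families have.

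The 5 stretches below are 201 bases around the summit (base 101), written 5′ to 3′ on the strand of the gene, from RefSeq's copy of the WBcel235 genome. They are chrX:1344962-1345162 (minus strand) for ins-39, chrIII:9487645-9487845 (plus strand) for nlp-36, chrV:20374809-20375009 (plus strand) for ins-35, chrIV:9682572-9682772 (minus strand) for ins-7 and chrII:6745946-6746146 (minus strand) for ins-14. Capitals mark TGACAG or its reverse complement CTGTCA, searched on both strands.
ins-39: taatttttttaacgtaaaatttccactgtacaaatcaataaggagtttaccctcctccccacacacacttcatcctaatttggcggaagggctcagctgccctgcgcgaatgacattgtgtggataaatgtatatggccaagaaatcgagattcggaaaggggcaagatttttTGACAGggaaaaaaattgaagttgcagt
nlp-36: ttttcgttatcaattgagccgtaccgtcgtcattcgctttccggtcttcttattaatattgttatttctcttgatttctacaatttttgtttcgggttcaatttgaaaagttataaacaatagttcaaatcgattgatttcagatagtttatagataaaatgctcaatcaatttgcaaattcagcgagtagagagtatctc
ins-35: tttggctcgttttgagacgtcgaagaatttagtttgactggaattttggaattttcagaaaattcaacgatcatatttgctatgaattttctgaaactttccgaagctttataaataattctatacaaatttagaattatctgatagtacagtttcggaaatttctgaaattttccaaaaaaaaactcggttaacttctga
ins-7: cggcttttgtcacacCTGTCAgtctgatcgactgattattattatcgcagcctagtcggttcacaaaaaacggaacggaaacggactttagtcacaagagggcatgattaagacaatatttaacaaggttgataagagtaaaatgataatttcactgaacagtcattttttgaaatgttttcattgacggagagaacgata
ins-14: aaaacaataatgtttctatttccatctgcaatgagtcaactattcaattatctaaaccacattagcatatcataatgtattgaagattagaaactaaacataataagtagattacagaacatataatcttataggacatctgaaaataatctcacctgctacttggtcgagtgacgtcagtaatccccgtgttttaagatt

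TGACAG lay in 2 of the 5 stretches, from base 174 to base 179 at ins-39 and from base 16 to base 21, as CTGTCA, at ins-7. These words were 73 and 80 bases from the summit. The stretches of nlp-36, ins-35 and ins-14 held neither word. Of all 4828 nuclear pooled regions, 9.61% held TGACAG within the same 201 bases. Within 50 bp of the summit, 0 of the 5 regions had it. Over the whole promoter window, TGACAG was in 63 of the 140 peptide genes (45%), in 48.4% of flp, 46.5% of nlp and 39.5% of ins genes, and in 44.9% of the other genes. The windows thus held the word about as often as those of other genes. A match is only a description of the letters.

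At ins-39, an insulin-like peptide gene on the X chromosome, the region was high in every list. It was the sole member with a thresholded region (1 of 140, against 0.499% of other genes) and the sole one with a pooled q-value of 0.05 or less (against 0.998%). The other genes include mitochondrial genes, and among the nuclear ones alone these shares were 0.439% and 0.938%. The region (chrX:1344854-1345269) lay between genes, with its summit 641 bp upstream of the start, and no other protein-coding gene's window contained it. Its signal was 25.1 in the pooled list, at rank 112, with a q-value of 0.0381. That is the lowest value the list holds, and all 197 thresholded regions share it. In replicate 1 the summit lay 625 bp upstream, with a signal of 11.9, rank 82 and a q-value of 0.0022. In replicate 2 it lay 645 bp upstream, with a signal of 11.8, rank 275 and a q-value of 0.0164. The replicates' summits were thus 20 bp apart. Replicate 2 listed further regions on either side, 845 bp upstream (rank 7251) and 248 bp upstream (rank 7936).

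At nlp-36, a neuropeptide-like gene on chromosome III, the region came from replicate 2. Its pooled summit lay 986 bp upstream of the start, close to the window's edge, with a signal of 13.8, rank 598 and a q-value of 0.155. Replicate 2 had a summit 967 bp upstream with a signal of 10.8, rank 383 and a q-value of 0.017. Replicate 1 had no region there, and its nearest entry in the window was 130 bp downstream of the start, at rank 11571 with a q-value of 0.582. With ins-39, this makes 2 of 140 peptide genes with a pooled rank of 1000 or better (1.43%), against 2.86% of other genes.

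The remaining pooled regions had q-values above 0.6, with ins-35 in the middle of the list and ins-7 and ins-14 near its end. At ins-35 (chromosome V) the summit lay 627 bp upstream, with a signal of 9.69, rank 2034 and a q-value of 0.637. Replicate 1 placed its best summit 794 bp upstream (rank 3534) and replicate 2 placed one 537 bp upstream (rank 2979), 257 bp away. At ins-7, an agonist of DAF-2 on chromosome IV, the summit lay inside the gene, 173 bp downstream of the nearest of its 2 annotated starts. Its signal was 7.72, with rank 4583 and a q-value of 0.952. Replicate 2 had a region 107 bp downstream (rank 15522) and replicate 1 had none. At ins-14 (chromosome II) the summit lay 232 bp upstream, with a signal of 7.65, rank 4758 and a q-value of 0.952. Replicate 2 had a summit 160 bp upstream, at rank 1020 with a q-value of 0.125, and replicate 1 had none. The windows of ZK1251.3 and F41G3.5, genes named after their values were seen, also contained the ins-7 and ins-14 summits.

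**Figure D1:**
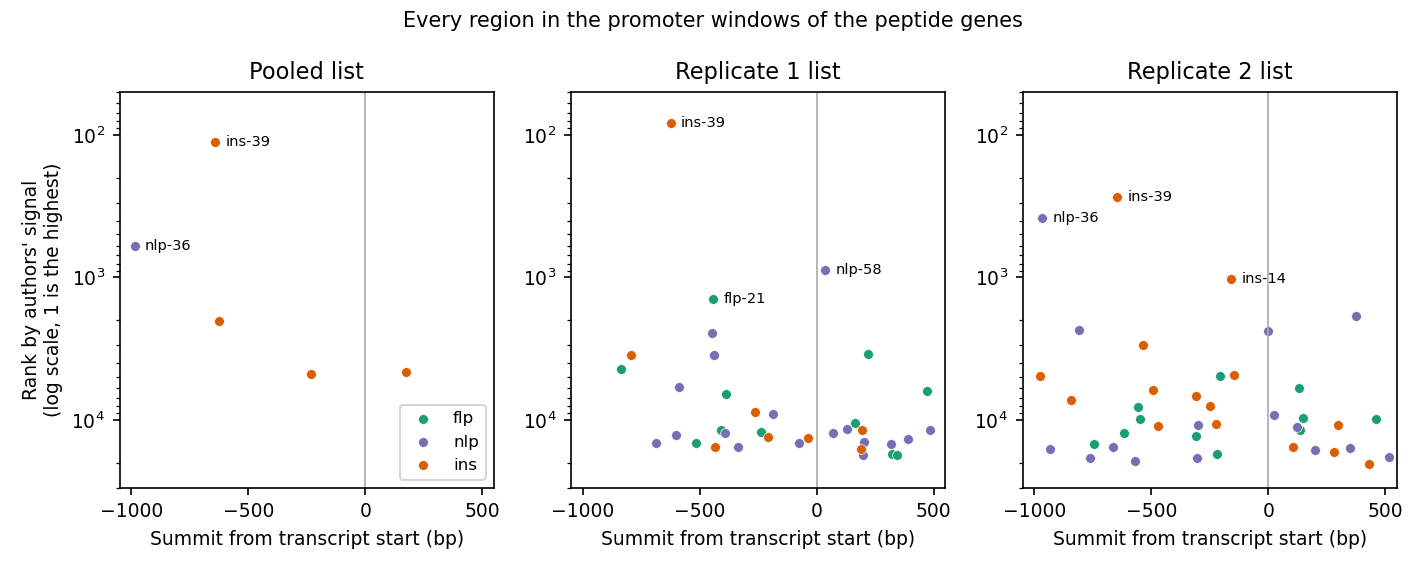
Every region in the promoter windows of the 140 peptide genes, one panel per list (pooled, replicate 1, replicate 2), with the distance of the summit from the nearest transcript start in bp (negative is upstream) against its rank (log scale, 1 at the top) and colours for the families. The region of ins-39 stands at rank 112 in the pooled list, 82 in replicate 1 and 275 in replicate 2, while the pooled panel holds no flp region.

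The replicates agreed on few peptide gene regions. Replicate 1 had a region in the windows of 33 of 140 peptide genes (23.6%, interval 17.3 to 31.2), against 30.7% of other genes. Replicate 2 had one in 36 (25.7%, interval 19.2 to 33.5), against 34.4%. Only 9 genes had a region in both lists (6.43%, against 14.9%), while 80 had one in no list (57.1%, against 49.6%). A region in replicate 1 alone was at 24 (17.1%, against 15.8% of other genes) and one in replicate 2 alone at 27 (19.3%, against 19.5%), both near the share of other genes. In the 9 genes, the closest summits of the replicates were a median 681 bp apart, against 199 bp in the 2955 other genes with both. Summits within 100 bp of each other, termed matched here, were found at 2 of 140 peptide genes (1.43%, interval 0.393 to 5.06) and at 5.23% of other genes (interval 4.92 to 5.54). The 2 genes were ins-39 and ins-1. No test of these shares was made, and the Wilson intervals cover the counting of genes only.

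**Figure D2:**
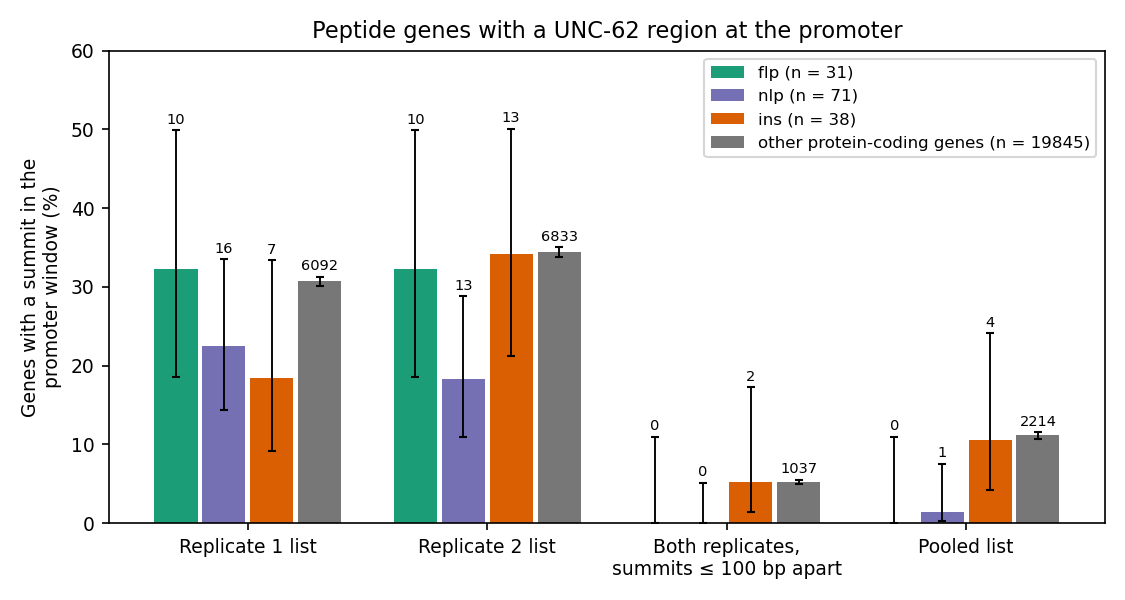
Percentage of flp (31), nlp (71), ins (38) and other protein-coding genes (19845) with a summit in the promoter window, for the 2 replicate lists, for replicate summits within 100 bp of each other and for the pooled list. Bars are shares, lines are 95% Wilson intervals and the numbers above are genes. In the pooled list flp has 0 genes, nlp 1 and ins 4, against 2214 other genes (11.2%).

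The flp genes had regions in single replicates about as often as other genes. Replicate 1 and replicate 2 each had a region at 10 of 31 (32.3%), against 30.7% and 34.4% of other genes. These were mostly different genes: 8 had a region in replicate 1 alone (25.8%, against 15.8% of other genes) and 8 in replicate 2 alone (25.8%, against 19.5%). A region in both was at 2 (6.45%, against 14.9%), and 13 had one in no list (41.9%, against 49.6%). The 2 with both were flp-3, with best ranks of 6319 and 9726, and flp-9, with 17354 and 8179, and their closest summits lay 323 and 878 bp apart. At flp-21, which encodes a ligand of the receptor NPR-1, replicate 1 listed a summit 442 bp upstream with a signal of 5.38, rank 1425 and a q-value of 0.0446, and replicate 2 listed none. At flp-18, another source of NPR-1 ligands, replicate 2 listed a region at rank 17394 (q-value of 0.932) and replicate 1 none. At flp-1, an FMRFamide-like gene with a part in locomotion, no list had a region, and the nearest pooled summit was 52304 bp from its start. With replicate 1 alone, taken to the length of the pooled list, flp-21, flp-23 and flp-28 had a region, 9.68% of flp genes against 10.1% of other genes. With replicate 2 alone the share was 0%, against 10.7%.

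The nlp genes had the most members without any region. Replicate 1 listed a region at 16 of 71 (22.5%, interval 14.4 to 33.5) and replicate 2 at 13 (18.3%, interval 11.0 to 28.8), against 30.7% and 34.4% of other genes. The nlp interval held the share of other genes in replicate 1 and lay below it in replicate 2. By gene, 13 had a region in replicate 1 alone (18.3%, against 15.8% of other genes) and 10 in replicate 2 alone (14.1%, against 19.5%). A region in both was at 3 (4.23%, against 14.9%), and 45 had one in no list (63.4%, against 49.6%). The highest in replicate 1 was at nlp-58, 36 bp downstream of the start, with a signal of 6.06, rank 891 and a q-value of 0.0241. Replicate 2 listed nothing there. With ins-39 and flp-21, nlp-58 makes 3 of 140 peptide genes with a q-value of 0.05 or less in replicate 1 (2.14%), against 3.76% of other genes. In replicate 2 the count was 2 (1.43%), at ins-39 and nlp-36, against 1.71%. The genes nlp-58 and flp-23, like other single-replicate members outside the rule for named genes, are named after their values were seen.

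The nlp genes named whatever their values, nlp-12 and nlp-29, had regions in replicate 2 alone. Over the family, 13 of 71 nlp genes had a region in replicate 1 alone and 10 in replicate 2 alone. For nlp-12, a cholecystokinin-like peptide gene, replicate 2 listed a summit 375 bp downstream (rank 1858, q-value of 0.227), and replicate 1 listed none. The epidermal antimicrobial genes around nlp-29 (nlp-27, nlp-28, nlp-29, nlp-30, nlp-31 and nlp-34) had 0 of 6 with a pooled region and 0 of 6 with a replicate 1 region. Among other genes these shares were 11.2% and 30.7%, and 6 genes are too few to show a difference. Replicate 2 listed nlp-29, 25 bp downstream of the start (rank 9238, q-value of 0.747), and nlp-30 (rank 18659, q-value of 0.961). These were 2 of the 6 (33.3%), against 34.4% of other genes. At nlp-40, an intestinal peptide gene of the defecation cycle, replicate 2 listed a summit 1 bp from the start (rank 2375, q-value of 0.292). Replicate 1 listed none in the window. Beyond it, replicate 1 had a summit 1 bp from a pooled summit 1276 bp downstream (replicate 1 rank 2778, q-value of 0.114). The gene nlp-40 was named after its values were seen.

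The ins genes had the highest share of the 3 families in the pooled list, 10.5% (interval 4.17 to 24.1), against 1.41% of nlp (interval 0.249 to 7.56), 0% of flp (interval 0 to 11.0) and 11.2% of other genes. The intervals of the 3 families overlap, so no order among them is shown. Replicate 2 listed a region at 13 of 38 (34.2%) and replicate 1 at 7 (18.4%), against 34.4% and 30.7% of other genes. At ins-1, an antagonist of DAF-2, the replicates' summits lay 210 and 309 bp upstream, 99 bp apart. They stood at ranks 13169 and 6782, with q-values of 0.651 and 0.646, and no pooled region lay within 500 bp. At ins-18, another antagonist, replicate 2 listed a summit 975 bp upstream (rank 4885, q-value of 0.53). No list had a region at ins-6, an agonist of DAF-2. By gene, 3 ins genes had a region in replicate 1 alone (7.89%, against 15.8% of other genes) and 9 in replicate 2 alone (23.7%, against 19.5%). A region in both was at 4 (10.5%, against 14.9%), and 22 had one in no list (57.9%, against 49.6%).

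**Figure D3:**
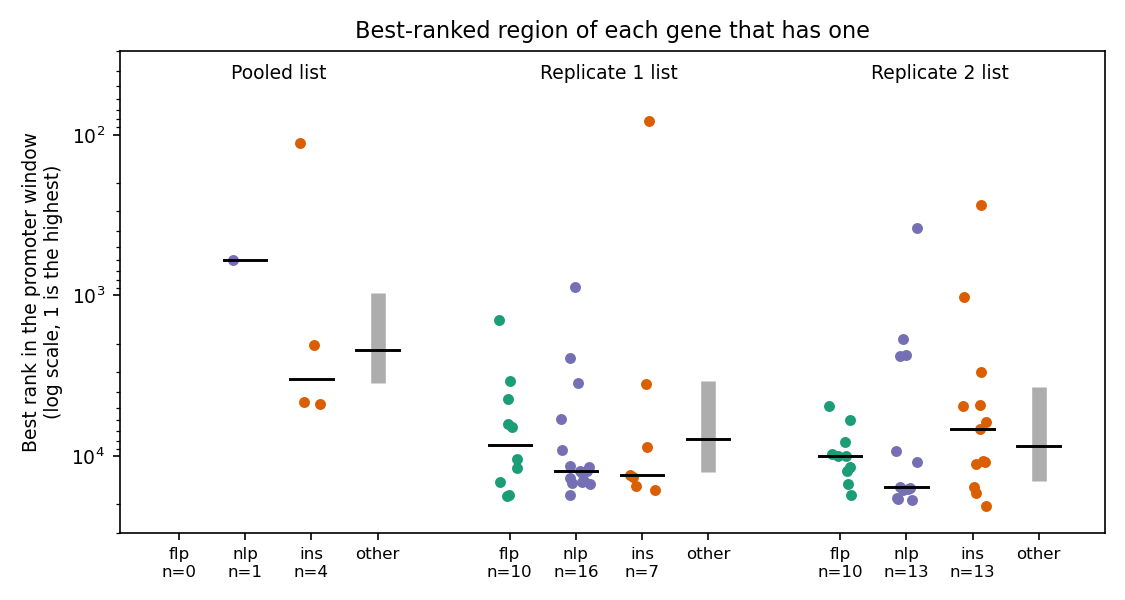
Best rank (log scale, 1 at the top) of each peptide gene with a region, by family and list, beside the other protein-coding genes. Points are genes, black lines are medians and grey bars run from the first to the third quartile of other genes. The median best rank of the peptide genes was 11831 in replicate 1 and 10300 in replicate 2, below the medians of other genes at 7861 and 8592.

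Where peptide genes had a region, it tended to stand lower in the replicate lists than the regions of other genes. The median best rank was 11831 over the 33 peptide genes in replicate 1, against 7861 over 6092 other genes, and 10300 over 36 peptide genes in replicate 2, against 8592 over 6833. Both medians lay within the quartiles of other genes, which were 3428 and 12640 in replicate 1 and 3712 and 14228 in replicate 2. By family, replicate 1 gave medians of 8519 for flp, 12450 for nlp and 13169 for ins. Replicate 2 gave 9928, 15612 and 6782, so there the ins genes stood higher in the list than other genes. The order of the families thus differed between the replicates. In the pooled list the median over 5 peptide genes was 2034, against 2192 over 2214 other genes.

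The position of the peptide genes in the genome differed from that of other genes in several measured ways. On the X chromosome lay 34 of 140 (24.3%), against 13.6% of other genes, and 13 of the 31 flp genes were there. Within X, a pooled region was at 1 of 34 peptide genes (2.94%, interval 0.521 to 14.9), against 13.9% of other genes. On the autosomes it was at 4 of 106 (3.77%, interval 1.48 to 9.3), against 10.7%. Fewer peptide genes shared part of their window with another protein-coding gene, 29 of 140 (20.7%, and 1 of 31 flp genes), against 40.7% of other genes. Where the window was not shared, 3 of 111 peptide genes had a pooled region (2.70%, interval 0.923 to 7.65), against 10.1% of other genes. Several starts, which widen the window, were annotated for 19.3% of peptide genes, against 26.3%. The median GC content of the window was 35.4%, against 35.3%. The part of these properties in the counts was not tested beyond these values.

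Just beyond the promoter window, the pooled region of highest rank lay at ins-13. From 3000 bp upstream to 2500 bp downstream of a start, but outside the window, 20 peptide genes had a pooled summit (14.3%, against 16.6% of other genes). By family these were 2 flp (6.45%), 12 nlp (16.9%) and 6 ins genes (15.8%). Of these 23 gene and region pairs, 12 had the start of another gene nearer. At ins-13, on chromosome II, a pooled summit lay 1322 bp downstream of its start, past the end of this short gene, with a signal of 19.4, rank 239 and a q-value of 0.0381. Replicate 1 had a summit 108 bp from it at rank 116 (q-value of 0.0022), and replicate 2 one 2 bp from it at rank 2041 (q-value of 0.238). A second pooled summit lay 586 bp downstream of the start, 86 bp outside the window, at rank 507. Both replicates had a summit within 100 bp of it, at ranks 421 and 512, with q-values of 0.0107 and 0.0381. The other pooled regions of rank 1000 or better were near ins-17, ins-37, nlp-40 and nlp-1, with ranks of 348, 423, 480 and 641. At ins-17, ins-37 and nlp-1 another gene's start was nearer, that of the ribosomal protein gene rps-1 for ins-17, that of F08G2.5 for ins-37 and that of aex-4 for nlp-1. At nlp-40 its own start was nearest, with the summit 1927 bp downstream. Replicate 2 listed that region at rank 444 (q-value of 0.0259) and replicate 1 at rank 5909 (q-value of 0.279). These genes were named after their values were seen.

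**Figure D4:**
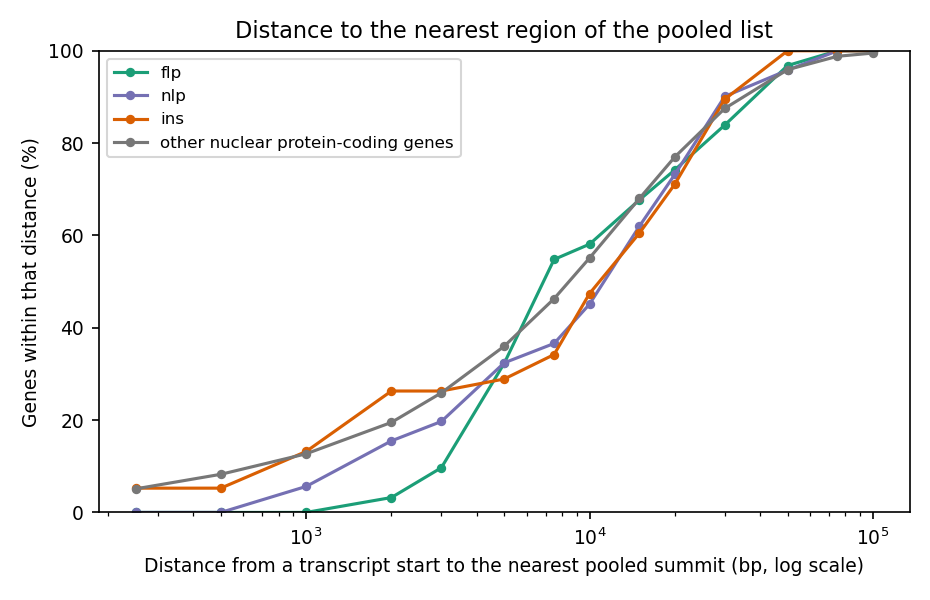
Percentage of flp, nlp, ins and other nuclear protein-coding genes with a pooled summit within a given distance of a transcript start (bp, log scale). Within 2000 bp the shares are 3.23% of flp, 15.5% of nlp and 26.3% of ins genes, against 19.5% of other genes, while at 7500 bp flp is highest with 54.8%, against 46.3% of other genes.

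Measured without a window, the median distance from a start to the nearest pooled summit was 10746 bp for peptide genes, against 8515 bp for other genes. It was 6458 bp for flp, 11379 bp for nlp and 10752 bp for ins genes. Within 2000 bp there was a pooled summit for 3.23% of flp, 15.5% of nlp and 26.3% of ins genes, against 19.5% of other nuclear genes. The ins-7 and ins-14 summits also counted there for ins-8 and ins-15. Within 5000 bp the shares were 32.3%, 32.4% and 28.9%, against 36%. The flp share was thus the lowest of the 4 sets at 2000 bp and close to that of nlp genes at 5000 bp. Within 7500 bp it was the highest, with 54.8% of flp, 36.6% of nlp and 34.2% of ins genes, against 46.3%. Within 15000 bp the shares were 67.7%, 62% and 60.5%, against 68%.

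Receptor genes for these peptides also had few regions in the pooled list. The sets of processing and release genes and of further peptide genes were too small to show a low share. Of 13 processing and release genes, among them egl-3, egl-21 and unc-31, 0 had a pooled region, against 11.2% of other genes. The nearest pooled summit to egl-3 was 507 bp from its start, just outside the window. Replicate 1 listed 4 of the 13 (30.8%, against 30.7% of other genes) and replicate 2 listed 6 (46.2%, against 34.4%). Of 8 further peptide genes, among them insulin-like daf-28 and the PDF neuropeptide genes pdf-1 and pdf-2, 0 had a pooled region, against 11.2%. Replicate 1 listed 2 of the 8 (25%, against 30.7%) and replicate 2 listed 1 (12.5%, against 34.4%). Of 103 peptide receptor genes, 4 had a pooled region (3.88%), against 11.2% of other genes. They were sprr-2, npr-31, gnrr-7 and npr-40, with pooled ranks of 1418, 2875, 4597 and 4788, and 2 of the 103 had a matched region. Replicate 1 listed 23 of the 103 (22.3%) and replicate 2 listed 27 (26.2%), against 30.7% and 34.4% of other genes. None of the pooled q-values was 0.05 or less, and the 4 genes were named after their values were seen.

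Of 11 genes of the insulin receptor pathway, through which ins peptides act, 3 had a pooled region (27.3%, against 11.2% of other genes). Replicate 1 listed 6 of the 11 (54.5%, against 30.7%) and replicate 2 listed 8 (72.7%, against 34.4%). Several of the 11 had wide windows from several starts, 9006 bp at daf-2 and 7007 bp at daf-16, against a median of 1501 bp. Both replicates listed daf-2 and daf-16, and the part of window width in these shares was not tested. The receptor gene daf-2 had no pooled region. At akt-2, which encodes an Akt kinase, the pooled summit lay 945 bp upstream, with a signal of 12.7, rank 781 and a q-value of 0.212. The best replicate regions there had ranks of 2699 in replicate 1 and 2149 in replicate 2, with q-values of 0.113 and 0.258, and the replicates had matched summits in the window. At age-1, the phosphoinositide 3-kinase gene, the pooled summit lay 387 bp downstream at rank 2248, and at pdk-1, a kinase gene acting between AGE-1 and Akt, it lay 650 bp upstream at rank 2457. Their q-values were 0.703 and 0.754, and both genes were named after their values were seen. With 11 genes, no pooled q-value of 0.05 or less and no test, these values only describe the list.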

How the data were processed

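UNC-62 ChIP-seq regions of 2 biological replicates were analysed. Per the file headers of the read-me texts, the authors made the replicate and pooled lists from ce11 alignments, as input to the irreproducible discovery rate step. No aligner, caller, version or threshold for that step is given in the sources used here. Region signal as deposited has no stated scale and served only to rank regions within a list. The deposited −log10 of the q-value was turned into a q-value. The ce10 lists were not used.

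Summits (1-based) were assigned to windows around protein-coding transcript starts of WBcel235 (ce11 coordinates, Ensembl release 115). The whole table of 19985 genes was counted with Python 3.11.15, numpy 2.4.6 and pandas 2.3.3. Window assignment was tested on simulated data. Named are members with a pooled region (at most 25), 9 genes fixed whatever their values (ins-1, ins-6, ins-7, ins-18, flp-1, flp-18, flp-21, nlp-12, nlp-29) and pathway genes of pooled rank 1000 or better. The members and lists were chosen with earlier results of these data known. Alternatives changed the window, the assignment, the limits or the replicate used.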

Additional observations from a re-analysis of the deposited data

How the results depend on the processing

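With the window from 500 bp upstream to 100 bp downstream, 2 peptide genes kept a pooled region (0 nlp, 2 ins, 1.43% against 6.35% of other genes), 0 had one of rank 1000 or better, 1 (ins-1) had a matched region, and 0 had a pooled q-value of 0.05 or less or a thresholded region, since the summit at ins-39 lies outside. With 2000 bp upstream the pooled count was 11 (4 nlp, 7 ins, 7.86% against 15.3%) and the matched count 4 (2 nlp). The ins share was then 18.4%, above that of other genes. In that count ins-8 and ins-15 had only the summits also counted for ins-7 and ins-14, whose starts were nearer. The ins share was also above that of other genes with the nearest start only (10.5% against 9.49%). The same held with any base of a region (13.2% against 12.8%), but not with the main rule. Counting any base of a region gave 2 nlp genes with a pooled region and 2 ins genes of rank 1000 or better. A rank limit of 500 left 1 gene (0 nlp), a q-value limit of 0.01 left 0, as in the whole list, replicate summits within 50 bp left 1 (ins-39), and TGACAG within 50 bp of a summit was at 0 genes. Using each replicate alone in place of the pooled list, taken to its length, gave 8 and 8 genes with a region (0 to 3 flp, 3 to 4 nlp, 2 to 4 ins). In all 6 alternatives to the count of genes with a pooled region, the share of peptide genes stayed below that of other genes. Assignment to the nearest start changed none of the peptide gene counts. Counts this small move by single genes. No paired analysis was possible because the series holds 1 group.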
